A study of Homo sapiens with 6 samples.

Results

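Core splicing factor genes were taken from the deposited table as the protein-coding genes whose symbols begin with SRSF, SF3A or SF3B and a number, SNRP, HNRNP or U2AF, and 63 of the 34371 features met this rule. They comprise 12 SR protein genes, 9 SF3A and SF3B genes, 12 SNRP genes, 4 U2AF genes and 26 hnRNP genes. The cells were ME-1, a line from a human acute myeloid leukaemia with the CBFB::MYH11 fusion, into which either an SPNS2 vector or a control vector without insert had been transduced before infected cells were selected. SPNS2 is a membrane transporter of sphingosine-1-phosphate. There were 3 libraries of polyadenylated RNA from SPNS2 cells and 3 from empty vector cells. All cells are from this 1 line, both groups carry a vector, and the labels state neither the dose of vector, nor how long the cells were cultured, nor whether separate cultures gave the libraries of a group, so each p-value refers to the spread among these 6 libraries, and that spread may be technical.

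The spliceosome removes introns from pre-mRNA. U1 snRNP binds the start of the intron, U2AF binds its end, and U2 snRNP with SF3A and SF3B binds the branch point, while each of these snRNPs is built on a ring of Sm proteins. SR proteins bind exons and mostly favour the use of nearby splice sites, hnRNP proteins coat pre-mRNA and often oppose that use, and the balance of both groups sets many alternative splicing choices. Several of these genes are mutated in myeloid neoplasms, and many SR and hnRNP genes limit their own output through transcripts that are degraded, which counts summed per gene cannot separate from productive ones.

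Totals were 28605187 to 38489992 counts per library, so that 3 counts in 1 library, the limit that a count of 0 allows, equal 0.0778 to 0.105 CPM (counts rescaled so that library totals are equal). This limit covers counting error alone. The vector SPNS2 sequence held 25283, 24792 and 25752 counts in the SPNS2 libraries, against 9, 3 and 0 counts in the empty vector libraries, in accord with the labels. All 10 markers of myeloid blasts averaged at least 1 CPM, although AZU1 did so through SPNS2 library 2 alone. Of these markers 4 were called higher, namely KIT (log2 fold change 0.55), CSF3R (0.26), PTPRC (0.26) and RUNX1 (0.13), and 2 lower, namely CD33 (-0.71) and CD34 (-0.25), while the 10 markers summed to 29312 to 30802 CPM in SPNS2 libraries and 29235 to 29655 CPM in empty vector libraries. Among markers of other cell types, EPCAM of the epithelial list and CD79A of the B cell list reached that level, and EPCAM was called higher (log2 fold change 0.19), as was CD3E of the T cell list, which averaged 0.892 CPM in SPNS2 cells and 0.494 CPM in empty vector cells. The part of these marker differences in the results on splicing factors was not tested. These are bulk samples, in which fewer cells of a type and less RNA per cell cannot be told apart.

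Core splicing factor genes that changed were, with 1 exception, slightly lower in SPNS2 cells than in empty vector cells. Of the 58 members that passed the filter on low counts, 23 fell and 1 rose at an adjusted p under 0.05 by edgeR's quasi-likelihood test, adjusted over all 13308 tested features. Over all tested features, 12.6% were called lower and 11.9% higher. Members are abundant, and abundant genes were called lower more often: among the 3917 tested features with a mean of at least 50 CPM, 22.6% were called lower and 13.9% higher, against 23 lower and 1 higher of the 50 members at that level (46.0% lower). The median log2 fold change was -0.09 over tested members, 0.00 over all tested features and -0.02 over the abundant ones. A negative value was found for 51 tested members and a positive value for 7. The changes were small, since the called members lay between -0.22 and 0.12 on the log2 scale. The 3 SPNS2 libraries all lay below the 3 empty vector libraries for 29 tested members and all above for 3, whereas this held for 20.3% and 19.8% of all tested features and for 32.1% and 20.0% of the abundant ones.

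**Figure D1:**
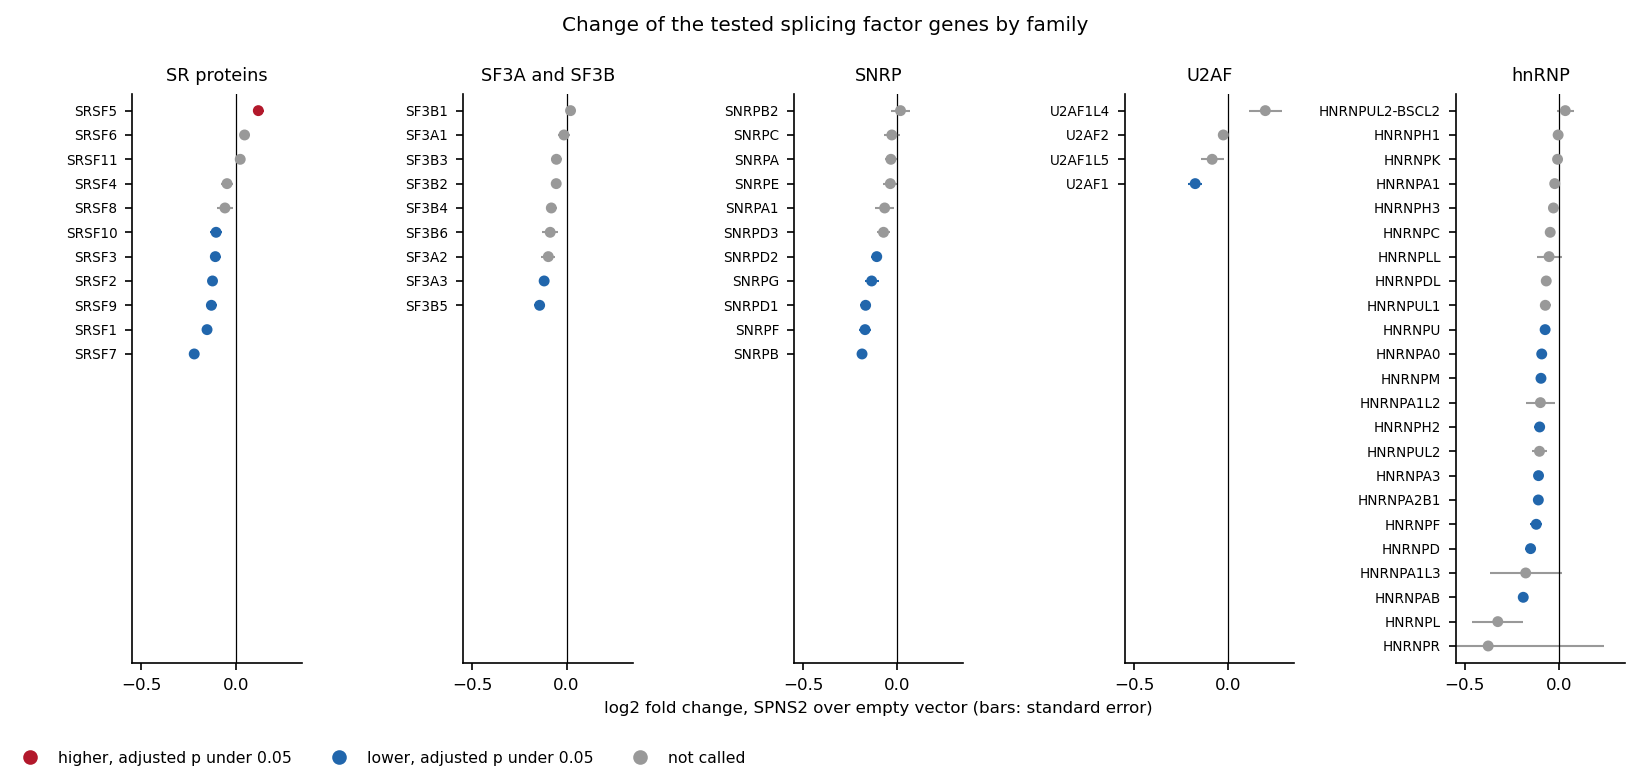
Log2 fold change (x axis, SPNS2 over empty vector) of each of the 58 tested members, in a panel per family and ordered from the highest to the lowest value. Points are edgeR estimates and bars are 1 standard error, that of HNRNPR running past the left edge. SRSF5, in red, is the only call above 0, and the 23 calls below 0 are blue.

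**Figure D2:**
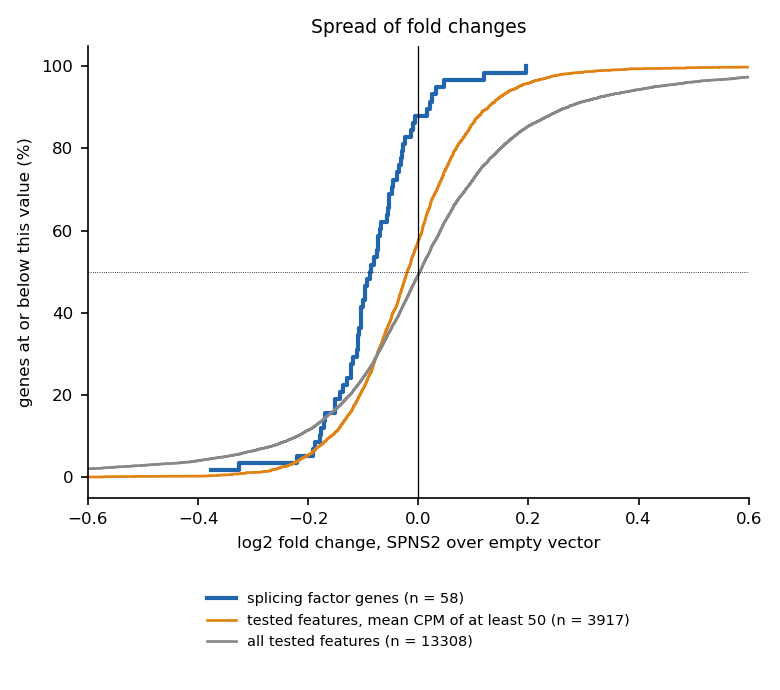
Cumulative share of genes (y axis, percent) at or below each log2 fold change (x axis, SPNS2 over empty vector) for the 58 tested splicing factor genes, the 3917 tested features with a mean of at least 50 CPM and all 13308 tested features. The splicing factor curve crosses 50% at -0.09, to the left of -0.02 for abundant features and 0.00 for all, and features beyond 0.6 in either direction are outside the axis.

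Promoter sequences are shown for members whose genes moved, to set the letters beside the values. RefSeq windows of GRCh38.p14 were found for 52 of the 58 tested members, and the 250 bases before each start were searched on both strands. The ETS motif CCGGAAG, or CTTCCGG on the other strand, stood in 19 of these 52 members (36.5%), against 18.8% of the 10128 tested features with a window. It was present for 6 of 21 members called lower (28.6%) and for 13 of 31 other tested members (41.9%). The E-box CACGTG stood in 7 members (13.5%, against 11.2% of tested features), and the CCAAT box, CCAAT or ATTGG, in 24 (46.2%, against 41.6%). No one of these motifs contains another, and a match describes the letters only. The stretches below run 5′ to 3′ along the gene's strand and end before the start of transcription, with the ETS motif in capitals, first for 4 genes that fell and then for SRSF5, which rose.
SNRPB, chr20:2470794-2470860, minus strand: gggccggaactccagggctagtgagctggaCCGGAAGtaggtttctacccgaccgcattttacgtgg
SNRPG, chr2:70293363-70293429, minus strand: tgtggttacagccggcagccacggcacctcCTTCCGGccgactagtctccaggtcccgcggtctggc
SF3A3, chr1:37990054-37990120, minus strand: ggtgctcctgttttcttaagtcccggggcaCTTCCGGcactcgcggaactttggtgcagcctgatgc
HNRNPD, chr4:82374138-82374204, minus strand: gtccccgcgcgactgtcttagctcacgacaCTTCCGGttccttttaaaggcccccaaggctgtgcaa
SRSF5, chr14:69767055-69767121, plus strand: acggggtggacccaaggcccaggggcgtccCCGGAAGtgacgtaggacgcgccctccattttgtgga
The same motif thus stands before genes that fell and before the one that rose. HNRNPD also has an E-box, in capitals here, closer to its start.
HNRNPD, chr4:82373992-82374048, minus strand: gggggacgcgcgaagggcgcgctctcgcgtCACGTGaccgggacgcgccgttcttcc

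Among the SR proteins, 6 of 11 tested genes fell (54.5%) and 1 rose (9.09%), with a median log2 fold change of -0.10. Of all tested features, 12.6% were called lower and 11.9% higher. Of those with a mean of at least 50 CPM, 22.6% were called lower and 13.9% higher. The largest fall was in SRSF7, which binds exonic enhancers and helps to export mRNA, with 195, 186 and 189 CPM in SPNS2 libraries, against 223, 218 and 223 CPM in empty vector libraries. All SPNS2 libraries lay below all empty vector libraries, and the log2 fold change was -0.22 (SE 0.0275, edgeR adjusted p = 0.000250). SRSF1, the prototype of the family, had 301, 298 and 293 CPM in SPNS2 libraries and 319, 337 and 335 CPM in empty vector libraries. The groups of SRSF1 did not overlap either (log2 fold change -0.15, SE 0.0277, edgeR adjusted p = 0.00244). SRSF2, which binds exonic enhancers and is recurrently mutated in myeloid neoplasms, averaged 474 ± 7.89 CPM in SPNS2 cells and 516 ± 9.78 CPM in empty vector cells (SD, n = 3 each; log2 fold change -0.12, edgeR adjusted p = 0.00413). SRSF9, a short SR protein close to SRSF1, averaged 161 ± 2.04 CPM in SPNS2 cells and 176 ± 5.58 CPM in empty vector cells (SD, n = 3 each; edgeR adjusted p = 0.00918). SRSF3, a small SR protein that also serves mRNA export, fell by 0.11 (edgeR adjusted p = 0.0179), and SRSF10, which represses splicing when it is dephosphorylated, fell by 0.10 (edgeR adjusted p = 0.0343), both on the log2 scale. The last 2 calls were the least stable of the family: SRSF3 lost its call without SPNS2 library 2 or 3 or empty vector library 2 or 3, and SRSF10 lost it in 8 of 14 alternatives.

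SRSF5 went the other way. This SR protein had 244, 242 and 252 CPM in SPNS2 libraries, against 229, 221 and 229 CPM in empty vector libraries. Every SPNS2 library was above every empty vector library (log2 fold change 0.12, SE 0.0275, edgeR adjusted p = 0.00891), and the call held in all 14 alternatives. SRSF6, another SR protein with a long RS domain, had 320, 323 and 324 CPM in SPNS2 libraries and 308, 316 and 313 CPM in empty vector libraries. Its groups did not overlap, but its log2 fold change of 0.05 (SE 0.0234) did not pass the test (edgeR adjusted p = 0.174). SRSF11 had a log2 fold change of 0.02, SRSF4 one of -0.05 and SRSF8 one of -0.06, none of which passed. SRSF12, at 5 to 10 counts per library, did not pass the filter on low counts. Ratios of counts within a library do not depend on scaling between libraries: the log2 ratio of SRSF5 over SRSF7 was 0.33, 0.38 and 0.42 in SPNS2 libraries and 0.04, 0.03 and 0.04 in empty vector libraries. This pair was picked after its values were seen, so the ratio is a description.

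**Figure D3:**
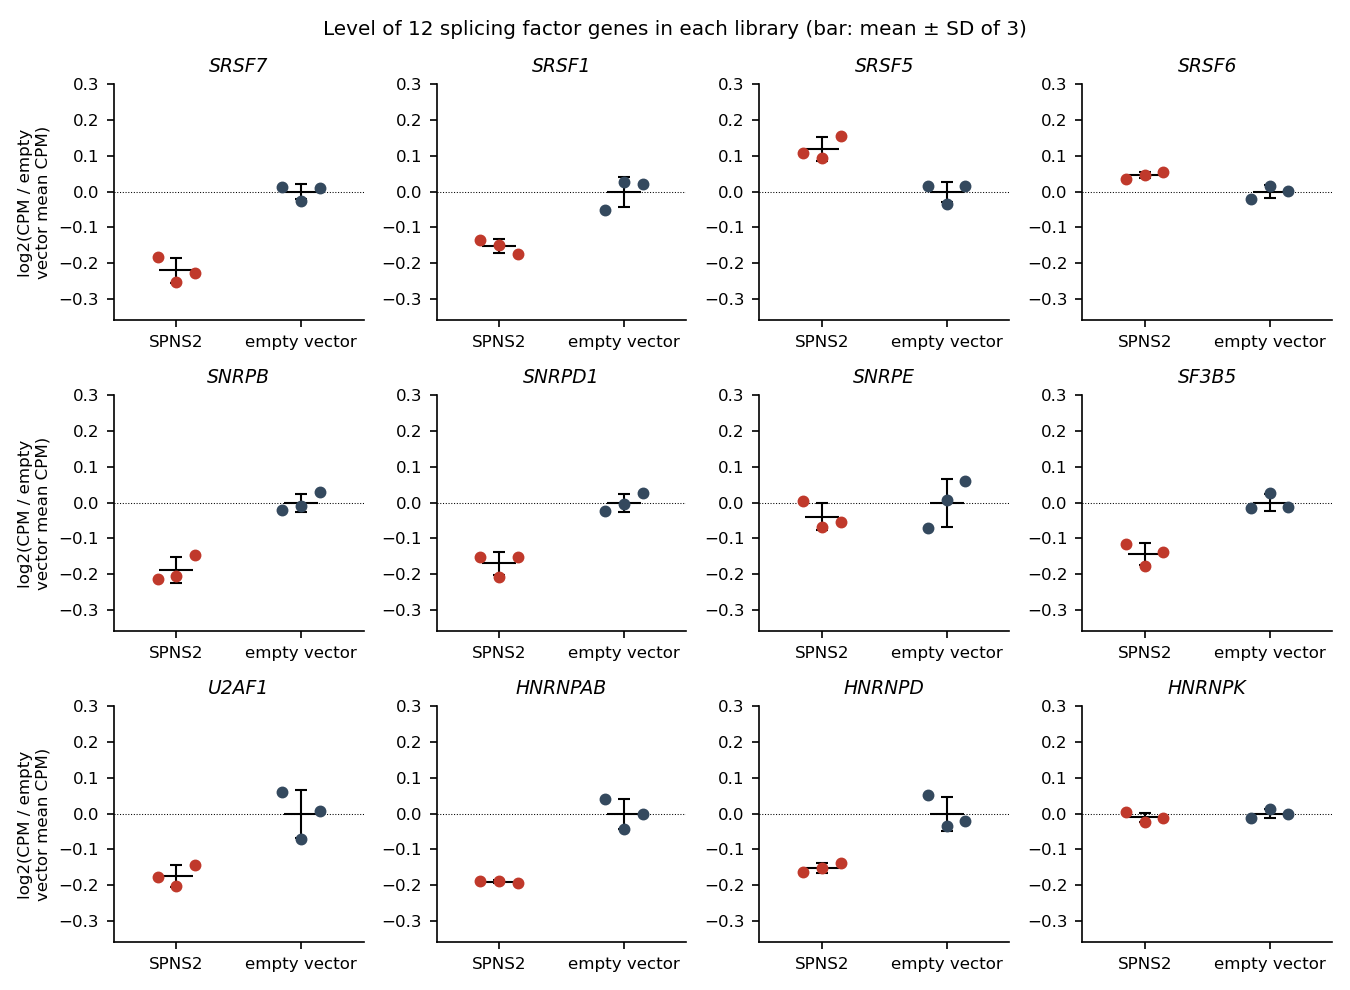
Level of 12 members in each library as log2 of CPM over the mean CPM of the empty vector libraries (y axis, same range in every panel, not starting at a true zero), with SPNS2 libraries left of empty vector libraries. Bars show the mean ± SD of 3 libraries. SRSF7 stands lowest in SPNS2 cells and SRSF5 above its empty vector libraries, while the libraries of SNRPE and HNRNPK overlap between groups.

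The SNRP genes fell within the Sm ring. This ring of 7 proteins closes around each of the U1, U2, U4 and U5 snRNAs. Of its 7 genes, 5 fell (71.4%), with a median log2 fold change of -0.14. They were the only calls among the 11 tested SNRP genes (45.5%). The share called lower was 12.6% of all tested features and 22.6% of those with a mean of at least 50 CPM. SNRPB, which encodes the SmB proteins, had 254, 256 and 266 CPM in SPNS2 libraries and 291, 293 and 301 CPM in empty vector libraries. The gap between the groups exceeded the spread within them (log2 fold change -0.19, SE 0.0274, edgeR adjusted p = 0.000640). SNRPD1, the gene of SmD1, had 102, 98.4 and 102 CPM in SPNS2 libraries and 112, 113 and 116 CPM in empty vector libraries (log2 fold change -0.17, SE 0.0301, edgeR adjusted p = 0.00217). SNRPF, the gene of SmF, had 67.5, 65.9 and 65.8 CPM in SPNS2 libraries and 74.4, 72.7 and 77.3 CPM in empty vector libraries. Neither gene's groups overlapped, and SNRPF had a log2 fold change of -0.17 (edgeR adjusted p = 0.00330). SNRPG, for SmG, fell by 0.14 and SNRPD2, for SmD2, by 0.11 on the log2 scale. SNRPG lost its call in 3 of 14 alternatives and SNRPD2 in 2, while SNRPB, SNRPD1 and SNRPF kept theirs in every one. SNRPD3 (-0.07) and SNRPE (-0.04 on the log2 scale) of the ring did not pass.

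None of 4 genes for proteins specific to U1 or U2 snRNP was called by edgeR, and their smallest unadjusted p was 0.194. SNRPA and SNRPC of U1 snRNP had log2 fold changes of -0.04 (SE 0.0308) and -0.03 (SE 0.0423). SNRPA1 and SNRPB2 of U2 snRNP had values of -0.07 (SE 0.0492) and 0.02 (SE 0.0493). The groups overlapped for all 4 genes, SNRPA1 passed when SPNS2 library 3 was left out, and whether they differ from the ring was not tested. As a description, the log2 ratio of SNRPB over SNRPB2 within a library was 2.36, 2.35 and 2.39 in SPNS2 libraries and 2.68, 2.48 and 2.56 in empty vector libraries. SNRPN, a paralog of SNRPB, was listed at 0 in all 6 libraries, and in a table of estimated counts such a 0 can also come from how transcripts were indexed. Without empty vector library 3, only 3 SNRP genes were called lower.

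Genes for the recognition of the 3′ splice site and the branch point held 3 calls, in each family a share about that of abundant features. Of 4 U2AF rows, 1 fell (25.0%, about the 22.6% of tested features with a mean of at least 50 CPM). This was U2AF1, whose product reads the AG at the end of the intron and which is recurrently mutated in myeloid neoplasms. U2AF1 had 103, 101 and 106 CPM in SPNS2 libraries and 122, 111 and 117 CPM in empty vector libraries. All 3 SPNS2 libraries were lower (log2 fold change -0.18, SE 0.0366, edgeR adjusted p = 0.00527). The near-identical U2AF1L5 has a row of its own, and reads can be divided between both rows. U2AF1L5 alone did not pass (log2 fold change -0.09, SE 0.0609), and the sum of both rows was 131, 129 and 131 CPM in SPNS2 libraries and 148, 140 and 148 CPM in empty vector libraries. The sum therefore has the direction of U2AF1 and groups that do not overlap. U2AF2, the partner that binds the polypyrimidine tract, was at 245 ± 2.63 CPM in SPNS2 cells and 250 ± 6.57 CPM in empty vector cells (SD, n = 3 each) and did not pass. The log2 ratio of U2AF1 over U2AF2 within a library was -1.25, -1.26 and -1.23 in SPNS2 libraries and -1.05, -1.13 and -1.12 in empty vector libraries. U2AF1L4, a paralog of U2AF1, had a log2 fold change of 0.20 (SE 0.0870, edgeR adjusted p = 0.130).

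SF3A and SF3B form the part of U2 snRNP that holds the branch point, and 2 of their 9 genes fell, with a median log2 fold change of -0.08. This share of 22.2% is about the 22.6% called lower among all abundant features. SF3B5, the gene of a small SF3B subunit, had 89.7, 85.9 and 88.3 CPM in SPNS2 libraries and 96.1, 99.1 and 96.3 CPM in empty vector libraries (log2 fold change -0.14, SE 0.0302, edgeR adjusted p = 0.00579). SF3A3, a subunit of SF3A, had 158, 156 and 153 CPM in SPNS2 libraries and 171, 165 and 170 CPM in empty vector libraries (log2 fold change -0.12, SE 0.0277, edgeR adjusted p = 0.00983). Neither gene's groups overlapped. SF3B1, the largest SF3B subunit, which clamps the branch point, was at 654 ± 5.14 CPM in SPNS2 cells and 645 ± 5.99 CPM in empty vector cells (SD, n = 3 each; log2 fold change 0.02, SE 0.0213, edgeR adjusted p = 0.525). It was the only one of the 9 with a value above 0. SF3A2 (-0.10), SF3B6 (-0.09), SF3B4 (-0.08), SF3B2 (-0.06), SF3B3 (-0.05) and SF3A1 (-0.01 on the log2 scale) did not pass. Without empty vector library 1, SF3B4, SF3A2 and SF3B6 passed as well and 5 genes of the family were called lower.

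Of 23 tested hnRNP genes, 9 fell (39.1%), with a median log2 fold change of -0.10. By comparison, 12.6% of all tested features and 22.6% of those with a mean of at least 50 CPM were called lower. HNRNPAB, a relative of HNRNPD that binds RNA and single-stranded DNA, had 213, 213 and 212 CPM in SPNS2 libraries and 250, 236 and 243 CPM in empty vector libraries. Its SPNS2 libraries lay close together and well below the others (log2 fold change -0.19, SE 0.0275, edgeR adjusted p = 0.000589). HNRNPD, also called AUF1, which binds AU-rich elements and promotes mRNA decay, had 294, 297 and 300 CPM in SPNS2 libraries and 342, 322 and 325 CPM in empty vector libraries (log2 fold change -0.15, SE 0.0279, edgeR adjusted p = 0.00257). HNRNPA2B1, an abundant RNA coat protein, had 1071, 1049 and 1065 CPM in SPNS2 libraries and 1172, 1120 and 1148 CPM in empty vector libraries. Neither HNRNPD nor HNRNPA2B1 overlapped between groups, and HNRNPA2B1 fell by 0.11 on the log2 scale (edgeR adjusted p = 0.00480). HNRNPA3, a paralog of HNRNPA2B1, had 603, 596 and 591 CPM in SPNS2 libraries and 645, 630 and 657 CPM in empty vector libraries (log2 fold change -0.11, edgeR adjusted p = 0.00634). HNRNPM, which binds GU-rich RNA, averaged 353 ± 2.26 CPM in SPNS2 cells and 378 ± 7.53 CPM in empty vector cells (SD, n = 3 each; edgeR adjusted p = 0.0138). The other calls were HNRNPF (-0.12), which binds G tracts, its relative HNRNPH2 (-0.10), HNRNPA0 (-0.09) and HNRNPU (-0.07), a nuclear scaffold protein, all as log2 fold changes. Of these, HNRNPH2 lost its call in 8 of 14 alternatives and HNRNPU in 6, and 5 hnRNP genes were called lower without SPNS2 library 2.

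Several of the most abundant hnRNP genes were not called. HNRNPA1, which opposes SR proteins at many exons, had 1822, 1827 and 1845 CPM in SPNS2 libraries and 1904, 1831 and 1853 CPM in empty vector libraries. These groups overlap, with a log2 fold change of -0.02 (SE 0.0206, edgeR adjusted p = 0.437). HNRNPK, which binds C-rich RNA, was at 705 ± 6.41 CPM in SPNS2 cells and 710 ± 5.98 CPM in empty vector cells (SD, n = 3 each). HNRNPH1, a paralog of HNRNPH2, was at 525 ± 7.98 CPM in SPNS2 cells and 527 ± 6.29 CPM in empty vector cells (SD, n = 3 each). HNRNPC, which binds U tracts, had a log2 fold change of -0.05 and HNRNPH3 one of -0.03. Also not called were HNRNPUL2 (-0.11), HNRNPA1L2 (-0.10), HNRNPUL1 (-0.07), HNRNPDL (-0.07) and HNRNPLL (-0.05 on the log2 scale), HNRNPA1L3 (-0.18, SE 0.191) and the HNRNPUL2-BSCL2 read-through row (0.03), which overlaps HNRNPUL2. HNRNPCL1 held 1 count and HNRNPCL3 and HNRNPCL4 none. Pseudogenes of these genes are many, but their rows held few counts: the 71 rows named as HNRNPA1 pseudogenes held 591 counts over 6 libraries beside 363842 on HNRNPA1 (0.162% of the sum). The division of reads between a gene and its near-identical copies remains uncertain.

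HNRNPL and HNRNPR stood apart in their spread. HNRNPL, which binds CA repeats, had 57.5, 58.1 and 59.9 CPM in SPNS2 libraries and 95.2, 61.4 and 61.9 CPM in empty vector libraries. Empty vector library 1 alone is high, and the log2 fold change of -0.33 (SE 0.135, edgeR adjusted p = 0.104) was -0.08 without it. HNRNPL passed when empty vector library 2 was left out and when the filter on low counts was dropped, as did HNRNPUL2. Of 8851 tested features with a mean of at least 10 CPM, that library stood at least 1.5 times above every other library for 1, which was HNRNPL. HNRNPR, a relative of SYNCRIP, had 9, 14 and 40 counts in SPNS2 libraries and 54, 4 and 28 counts in empty vector libraries. Its level ranged from 0.140 to 1.40 CPM without separating the groups, and its log2 fold change of -0.38 (SE 0.616) did not pass. How the authors' index held the transcripts of HNRNPR is not given in the sources used here, so these few counts may not measure its expression.

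**Figure D4:**
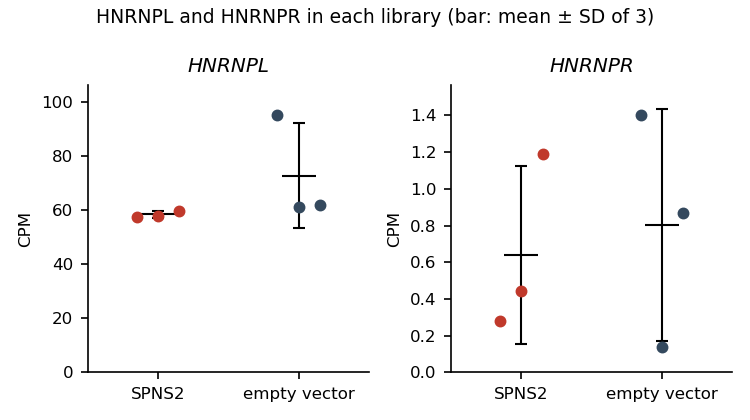
CPM (y axis, from 0) of HNRNPL and HNRNPR in each SPNS2 and empty vector library, with bars for the mean ± SD of 3. Empty vector library 1 of HNRNPL is at 95.2 CPM, above the other 5 libraries at 57.5 to 61.9 CPM, and HNRNPR spreads from 0.140 to 1.40 CPM.

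Summed over families, splicing factor genes took a smaller share of the counts in SPNS2 libraries. The hnRNP genes summed to 8868, 8768 and 8807 CPM in SPNS2 libraries and 9389, 9144 and 9229 CPM in empty vector libraries. SR protein genes summed to 2432, 2393 and 2443 CPM in SPNS2 libraries and 2537, 2541 and 2563 CPM in empty vector libraries, and SNRP genes to 1175, 1153 and 1180 CPM in SPNS2 libraries and 1241, 1254 and 1293 CPM in empty vector libraries. The ranges of the 2 groups did not overlap for any of the 5 families. The mean of the SPNS2 libraries differed from that of the empty vector libraries by -7.38% for SNRP, -4.88% for SR proteins, -4.75% for hnRNP, -4.60% for U2AF and -2.81% for SF3A and SF3B. These sums are dominated by the genes with most reads and say nothing of protein. Levels were also divided by the length of the annotated principal transcript, which HNRNPC, HNRNPA1L3, HNRNPUL2-BSCL2 and U2AF1L4 lack. The transcripts expressed here may have other lengths, so the order of genes rests on the annotation. HNRNPA2B1 (1711 bases) was the highest of the members with such a length, at 620 CPM per kb in SPNS2 cells and 670 CPM per kb in empty vector cells. HNRNPA1, with more CPM but an annotated length of 4121 bases, was at 444 and 452 CPM per kb in SPNS2 and empty vector cells. SRSF1 was at 196 CPM per kb in SPNS2 cells and 218 CPM per kb in empty vector cells. SRSF2 was close, at 197 and 214 CPM per kb in SPNS2 and empty vector cells.

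**Figure D5:**
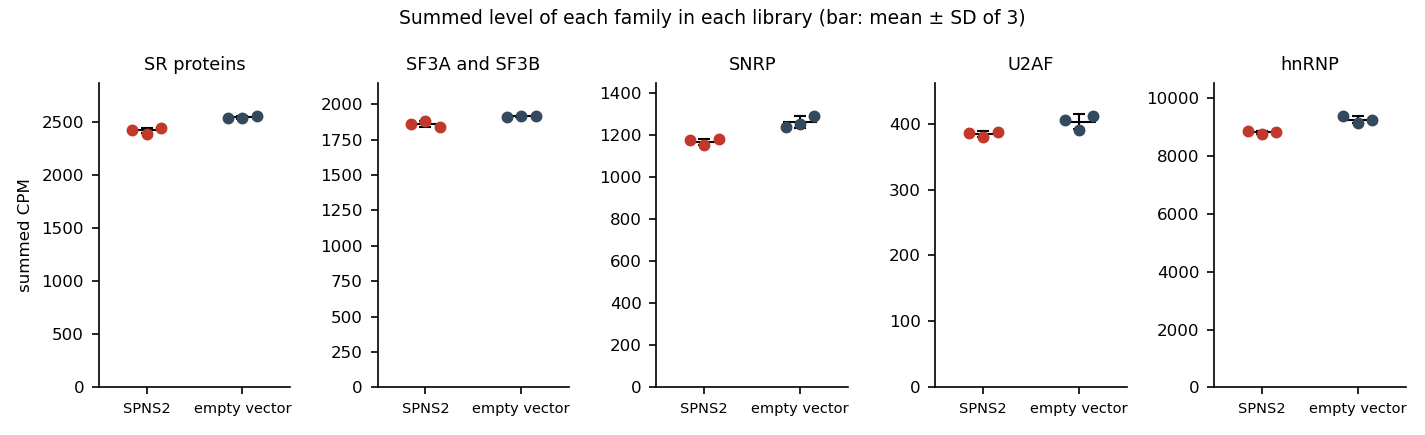
Summed CPM (y axis, from 0) of each family in each library, with SPNS2 libraries left of empty vector libraries and bars for the mean ± SD of 3. In all 5 panels the SPNS2 libraries lie slightly below, for example 1153 to 1180 against 1241 to 1293 CPM for SNRP.

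Other genes of the splicing machinery were read from 9 lists outside the rule. Of 181 tested rows, 34 fell and 10 rose (18.8% and 5.52%, against 12.6% and 11.9% of all tested features). Their median log2 fold change was -0.05, at a median level of 77.5 CPM against 23.0 CPM for all tested features. Among tested features with a mean of at least 50 CPM, 22.6% were called lower, a larger share than in these lists, and 13.9% higher. With upper quartile scaling 28 rows of the lists fell and 14 rose, and without SPNS2 library 1 20 fell and 6 rose. Without SPNS2 library 2 or empty vector library 2, 5 or 6 rose. Among proteins of other snRNPs, 8 of 27 fell (29.6%) and 1 rose (3.70%), with a median log2 fold change of -0.08. SART1, a U4/U6.U5 tri-snRNP protein, averaged 101 ± 0.617 CPM in SPNS2 cells and 114 ± 3.84 CPM in empty vector cells (SD, n = 3 each; edgeR adjusted p = 0.00227), and DDX23, a helicase of the same particle, fell by 0.15 on the log2 scale. The riser was RNPC3, a protein of the minor spliceosome, at 33.8 ± 0.622 CPM in SPNS2 cells and 28.9 ± 1.52 CPM in empty vector cells (SD, n = 3 each; log2 fold change 0.23, edgeR adjusted p = 0.00489).

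Factors that build snRNPs and drive their rearrangement mostly had values below 0, but the shares called lower in 3 of these lists were no higher than the 12.6% of all tested features: 11.8% for snRNP assembly, 8.33% for LSm proteins and 7.69% for the Prp19 complex. Of 17 genes for snRNP assembly, 2 fell: GEMIN4 of the SMN complex by 0.22 and PRMT5, the methyltransferase that modifies Sm proteins, by 0.12 on the log2 scale. Of 12 tested helicases, 5 fell (41.7%, against 22.6% of tested features with a mean of at least 50 CPM). Their median log2 fold change was -0.08. The helicases that fell included EIF4A3 of the exon junction complex (-0.20), DDX46, which acts with SF3B (-0.14), and DHX9 (-0.12). PRPF19, the ubiquitin ligase that names the Prp19 complex, averaged 223 ± 0.637 CPM in SPNS2 cells and 247 ± 4.72 CPM in empty vector cells (SD, n = 3 each; log2 fold change -0.15, edgeR adjusted p = 0.00180). It was 1 of 2 genes that fell of 26 in its list, the other being WBP11. LSM4 (-0.19) was the only one of 12 LSm genes called, and RBM17 (-0.13) was called among the branch point factors.

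Lists of regulators held calls both ways, as did all tested features. Of 27 SR protein kinases and SR-related genes, 3 rose and 3 fell (11.1% each way, about the shares of all tested features, with a median log2 fold change of 0.01). CLK1, a kinase that phosphorylates SR proteins in the nucleus, had 119, 121 and 121 CPM in SPNS2 libraries and 105, 106 and 111 CPM in empty vector libraries. This rise (log2 fold change 0.16, SE 0.0306, edgeR adjusted p = 0.00277) came with groups that do not overlap. TRA2B, an SR-like splicing activator, had 182, 184 and 179 CPM in SPNS2 libraries and 203, 201 and 204 CPM in empty vector libraries (log2 fold change -0.16, edgeR adjusted p = 0.000975). PNN, a nuclear speckle protein, fell by 0.13 on the log2 scale. Of 34 rows of other splicing regulators, 4 rose (11.8%) and 8 fell (23.5%). Both shares are about those of tested features with a mean of at least 50 CPM, 13.9% and 22.6%. TIA1, which favours weak splice sites next to U-rich RNA, rose by 0.18 and PTBP3, a paralog of the repressor PTBP1, by 0.24. PCBP1, a poly(C)-binding protein, fell by 0.11, all on the log2 scale. Of 14 genes of the exon junction complex and nonsense-mediated decay, 2 rose (14.3%) and 3 fell (21.4%), again about the shares of abundant features. The falls were UPF1 (-0.11), MAGOHB (-0.28) and RBM8A (-0.08 on the log2 scale).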

How the data were processed

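Libraries had been made with a TruSeq Stranded mRNA kit, per the labels' protocols. Estimated counts summed to genes were deposited; Salmon is the tool in the submitters' processing notes. The genome build was not given in the sources used here, nor was the annotation, so the only coordinates printed are those of RefSeq promoter windows. The values were whole numbers as deposited. Gene symbols were taken from a names table and GENCODE 29, gene types and transcript lengths from GENCODE 29, and promoters from RefSeq (GRCh38.p14).

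Counts were filtered with filterByExpr (minimum count 10, minimum total 15), scaled by TMM and tested with edgeR 4.0.16 in R 4.3.3 (quasi-likelihood, group as the only term), with Benjamini-Hochberg adjustment over 13308 features and a threshold of 0.05. CPM use TMM-scaled library totals. Standard errors are |log2 fold change| divided by the root of the F statistic. The same steps were tested on simulated data. Replicates differed beyond sampling noise (chi-square per degree of freedom 3.03 to 5.90), so each was counted.

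Members and lists were chosen with earlier results of these data known. Per-library values are given for the called members of each family with the smallest p (up to 5) and calls against the family's direction; for other lists, up to 3 genes with the smallest p. Further genes with values, the abundant background at 50 CPM and the ratios were chosen after values were seen. Some genes of the lists are not reported here.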

Additional observations from a re-analysis of the deposited data

How the results depend on the processing

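Across 14 alternatives (3 scalings, 2 filters, DESeq2, limma voom, the replicate block and 6 fits that each left out 1 library), no called member reversed, 16 of 24 kept their call in every one and 8 lost it in at least 1. The count of members called lower was 23 and ranged from 16 to 24 when 1 library was left out, with 1 member higher throughout. It was 20 with the replicate block, 20 with upper quartile scaling, 21 without scaling beyond the library total and 22 with DESeq2. Leaving out 1 library gave 2 to 5 SF3A and SF3B genes, 3 to 6 SNRP genes and 5 to 9 hnRNP genes called lower, and 26 to 43 calls in the other lists (5 to 11 higher, 20 to 35 lower). Same-numbered libraries of both groups showed correlations of deviations of 0.0312, 0.0375 and -0.0193, so the samples share only a number, and all features called numbered 2723 with the block and 3263 without it. The median log2 fold change of all features stayed within 0.001 to 0.016 over these fits. The 3 libraries of each group limit single calls this small, and members that did not pass are not shown to be equal between groups.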
